A study of Zea mays with 13 samples.

Results

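Read counts of 3 histone marks were examined at 8 maize genes known for their work in the endosperm, the starch-storing tissue of the kernel, here in another tissue, the immature wrapped leaf. The 8 genes were taken by identifier from the count tables, in which 43943 features are listed, and all 8 were found. They are waxy1 (wx1, Zm00001d045462), shrunken2 (sh2, Zm00001d044129), brittle2 (bt2, Zm00001d050032), sugary1 (su1, Zm00001d049753), amylose extender1 (ae1, Zm00001d016684), shrunken1 (sh1, Zm00001d045042), opaque2 (o2, Zm00001d018971) and prolamin-box binding factor1 (pbf1, Zm00001d005100). The names come from the gene list used here, since neither the deposited tables nor the reference gene table pairs these identifiers of the B73 RefGen_v4 genome with a name.

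Plants of the inbred B73 were raised in a greenhouse at normal watering. For the next 10 days control plants received 75% of disposable water and drought (stressed) plants 25%, in both cases at 0.1 dS/m salt. Leaves still wrapped inside older ones were harvested when this treatment ended (T0) and again 7 days into recovery (T7). Chromatin immunoprecipitation with sequencing (ChIP-seq) gave 1 library for each of 3 marks in each of the 4 groups, 12 in all, and 1 library of whole chromatin without antibody from well-watered plants at T0. No group has a replicate, so that a difference between a pair of libraries carries counting error only, and the variation between plants was not measured. The labels do not say how many plants went into a library.

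H3K4me3 and H3K9ac are found at the starts of genes that are transcribed or ready for it, and Polycomb complexes place H3K27me3 at genes kept silent in a tissue. In the endosperm, starch is made from sucrose: sucrose synthase frees the sugar nucleotide and ADP-glucose pyrophosphorylase makes the glucosyl donor. Starch synthases lengthen the chains, branching enzymes add side chains and debranching enzymes trim them. Maize has separate genes for many of these steps in leaf and endosperm, and mutants of the genes described here are known from their kernels. Opaque2 and the prolamin-box binding factor are the transcription factors of the endosperm that switch on storage protein genes and also act on starch genes.

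The level of a mark was taken as the log2 ratio of a library's counts over the whole-chromatin counts of the same gene, given relative to the 25th percentile of that library, so that 0 stands for the background of the library. A gene was called marked when it lay at least 2-fold (1 on the log2 scale) above the 25th percentile in all 4 libraries of the mark. H3K4me3 and H3K9ac were set against whole-chromatin counts of the 1 kb around the gene start, which is an assumption, and H3K27me3 against those over the whole gene, which stand in for its length. The order of the genes in the active marks therefore rests on the assumed window. Libraries held between 1152884 and 6876219 counts over all features, with H3K4me3 the deepest.

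With these windows the 8 genes fell into 4 combinations of marks. bt2, sh1 and pbf1 carried H3K4me3 and H3K9ac. su1 and ae1 carried H3K4me3 without H3K9ac, o2 carried H3K4me3 together with H3K27me3, and wx1 and sh2 carried none of the marks. By mark, 6 of the 8 genes were marked by H3K4me3, beside 60% of all features measured, 3 by H3K9ac, beside 31.1%, and 1 by H3K27me3, beside 10.7%. The shares of the 8 genes thus lay near those of all features for H3K4me3 and H3K9ac, and a single gene is too few to set against a share for H3K27me3. In bulk tissue, a mark held by fewer cells and a lower level in every cell cannot be told apart, nor can marks on the same and on different chromatin fibres. H3K9ac joined H3K4me3 at 3 of the 6 H3K4me3-marked genes and at 52.2% of all H3K4me3-marked features. Among the 39427 features measured for all marks, the state of bt2, sh1 and pbf1 was held by 32.4%, that of wx1 and sh2 by 33.3%, that of su1 and ae1 by 23.5% and that of o2 by 7.10%.

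**Figure D1:**
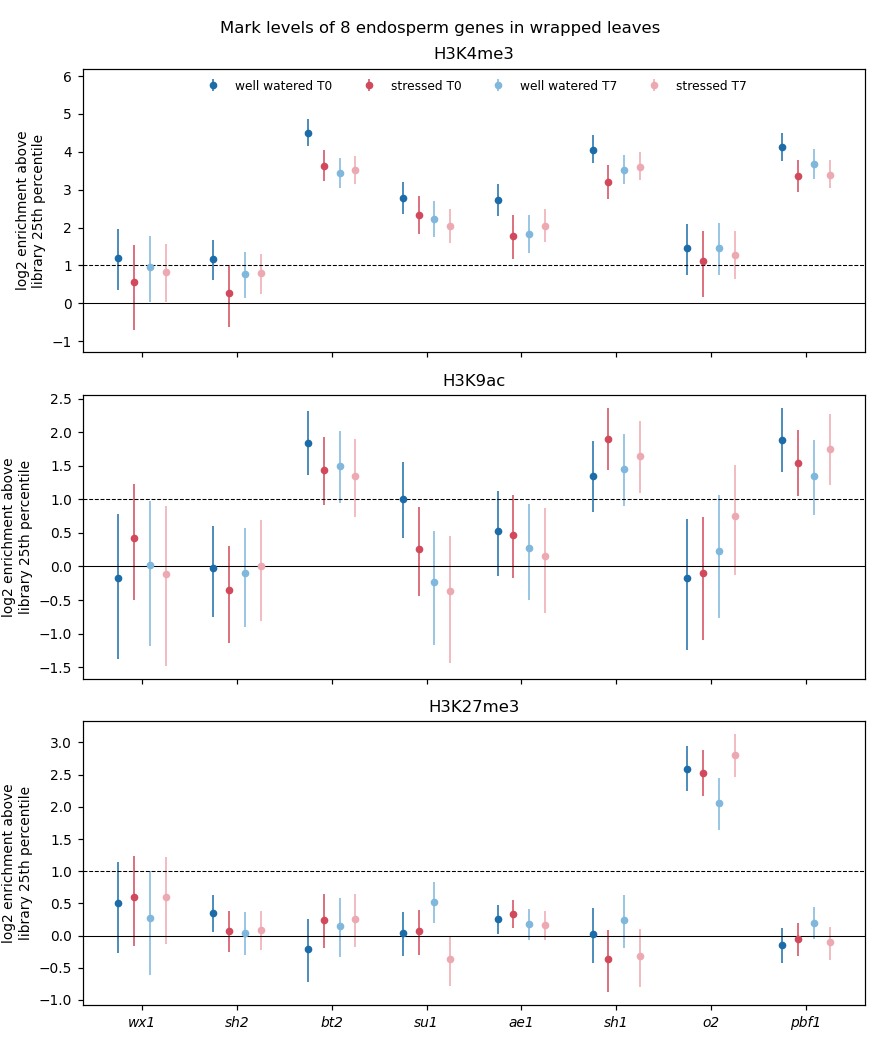
Level of each mark at the 8 genes in the 4 libraries of the mark (log2 enrichment over whole chromatin above the library's 25th percentile, vertical axis); bars are exact 95% intervals for counting error, the solid line is 0 and the dashed line the 2-fold threshold. For H3K27me3 all 4 points of o2 lie between 2.05 and 2.80, while those of the other 7 genes lie below the dashed line.

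The regulator o2, a bZIP transcription factor that binds promoters of zein and other endosperm genes, stood out by H3K27me3. At T0 its H3K27me3 counts were 124 in well-watered and 116 in drought plants, and at T7 they were 76 and 152, where whole chromatin gave 160 counts over the gene. These are levels of 2.59 and 2.53 at T0 and 2.05 and 2.80 at T7, all above every level of the other 7 genes, which ended at 0.60. The mean level of 2.49 ± 0.32 (SD over the 4 libraries, which belong to 4 different groups) was 5.63-fold above background and lay at percentile 97.9 of all features. The gene next in order, wx1, lay lower by 1.78 to 2.20 in each library.

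H3K4me3 at o2 was low. The gene held 30 and 16 H3K4me3 counts in well-watered and drought plants at T0 and 29 and 38 at T7, with levels of 1.45, 1.10, 1.47 and 1.29 in the same order. It passed the threshold in every library, though the lower end of the 95% interval was under 1 in all 4, and its mean level of 1.33 lay at percentile 39.2. H3K9ac counts were 12, 14, 14 and 18, with levels from -0.16 to 0.76, below the threshold throughout. Of all H3K4me3-marked features 12.8% also carried H3K27me3.

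The other regulator looked different. pbf1 encodes a zinc-finger factor of the DOF family that binds the prolamin box of zein promoters. H3K4me3 counts at pbf1 were 277 (well watered) and 111 (drought) at T0, and 193 and 237 at T7, over 80 whole-chromatin counts in the 1 kb window. The mean H3K4me3 level was 3.64 ± 0.36 (SD over 4 libraries), which is 12.4-fold above background and percentile 72.8. H3K9ac counts of 73, 64, 44 and 52 gave the highest mean H3K9ac level of the 8 genes, 1.63 ± 0.24, at percentile 77.7. H3K27me3 was at background, with 132, 138, 150 and 144 counts over 1139 of whole chromatin and levels of -0.14 to 0.20. With the windows used here the pair of endosperm regulators differed in these leaves, o2 with H3K27me3 and pbf1 with both active marks. With the other whole-chromatin window (the whole gene for active marks, 1 kb for H3K27me3) they did not part in this way: the mean H3K4me3 level was 0.33 at both, H3K9ac was 0.10 at o2 and -0.77 at pbf1, and H3K27me3 was 3.48 and 3.28.

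**Figure D2:**
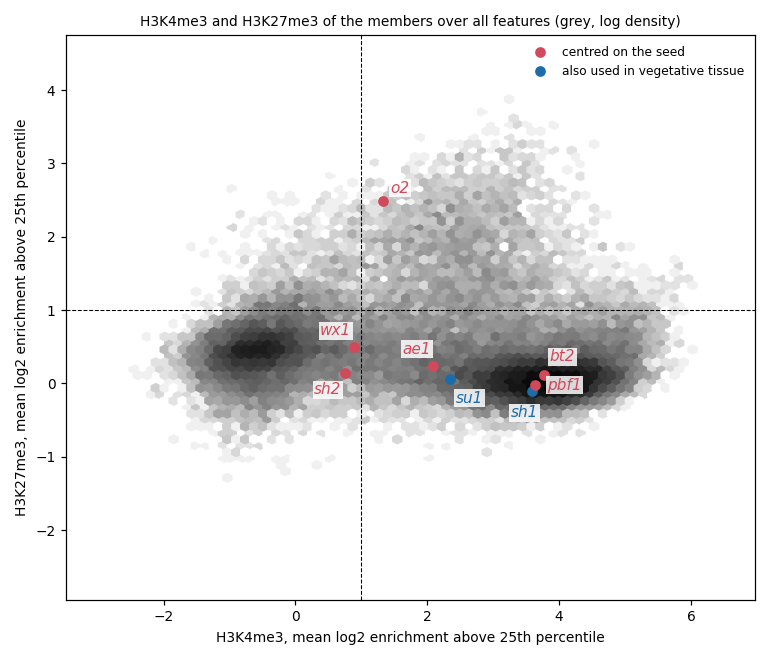
Mean H3K4me3 level (horizontal axis) and mean H3K27me3 level (vertical axis) over 4 libraries each, both in log2 units above the library's 25th percentile, for all features (grey, darker where denser) and the 8 genes; dashed lines mark 2-fold. o2 lies at 1.33 and 2.49, apart from the other 7 genes, which lie at or under 0.49 for H3K27me3.

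The genes at the entry of the pathway carried active marks unevenly. sh1 encodes a sucrose synthase, which is also known from vegetative organs. Its H3K4me3 counts were 266 (well watered) and 101 (drought) at T0 and 176 and 278 at T7, and its levels ran from 3.20 to 4.05. H3K9ac counts at sh1 were 51 and 83 at T0 and 48 and 49 at T7, and were highest in the stressed T0 library. The mean H3K9ac level was 1.59 ± 0.24, and H3K27me3 gave the lowest mean level of the 8 genes, -0.10 ± 0.29, at percentile 13.3.

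sh2 and bt2 encode the large and the small subunit of the endosperm ADP-glucose pyrophosphorylase, which work in 1 enzyme, and their marks were unlike. bt2 had the highest mean H3K4me3 level of the 8 genes, 3.77 ± 0.49, 13.6-fold above background and at percentile 76.0. Its H3K4me3 counts were 357 and 135 in well-watered and drought plants at T0 and 164 and 256 at T7, and its H3K9ac counts were 71, 59, 49 and 39 in the same order. sh2 had the lowest, 0.75 ± 0.37, at percentile 34.8, with 44, 16, 32 and 48 H3K4me3 counts over 100 whole-chromatin counts. The ranges over the libraries of both genes did not overlap for H3K4me3, which ended at 1.17 for sh2 and began at 3.44 for bt2. H3K9ac separated them in the same way, at 1.34 to 1.84 for bt2 and at -0.36 to 0.00 for sh2. Neither subunit gene carried H3K27me3, with means of 0.11 for bt2 and 0.14 for sh2.

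Among the genes that build and shape the polymer, wx1 encodes the granule-bound starch synthase that makes amylose, and is known to act in pollen as well as in endosperm. It held 21, 9, 17 and 23 H3K4me3 counts in well-watered and drought plants at T0 and in both at T7, over 47 whole-chromatin counts. The levels of 1.20, 0.56, 0.96 and 0.82 put it above 2-fold in 1 library only. H3K9ac at wx1 was at background, with 10, 17, 10 and 8 counts and a mean level of 0.04, and H3K27me3 held 21, 22, 16 and 24 counts with a mean of 0.49 at percentile 64.3. Counts this low leave wide intervals: the H3K4me3 level of the stressed T0 library had a 95% interval of -0.72 to 1.54.

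ae1 and su1 encode starch branching enzyme IIb and a debranching enzyme of the isoamylase type, whose joint action gives amylopectin its shape. Both lay between the groups described so far for H3K4me3. su1 held 112, 57, 73 and 95 counts and ae1 111, 39, 57 and 98, in well-watered and drought plants at T0 and then at T7. The mean levels were 2.34 ± 0.31 for su1, at percentile 49.2, and 2.09 ± 0.44 for ae1, at percentile 46.4, and their ranges overlapped. H3K9ac counts at ae1 were 30, 32, 22 and 18, with levels of 0.16 to 0.52, under the threshold in every library. At su1 they were 41, 27, 15 and 12, and the level of 1.003 in well-watered plants at T0 reached 2-fold there while the other 3 libraries lay between -0.37 and 0.27. H3K27me3 was at background for both, with a mean of 0.24 at ae1 and 0.07 at su1.

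In order of mean H3K4me3 level the 8 genes ran bt2, pbf1, sh1, su1, ae1, o2, wx1 and sh2. The first 3 overlapped in range and changed places between libraries. sh1 was above su1 by 0.85 to 1.58 in every library, ae1 was above o2 by 0.37 to 1.27, and their ranges over libraries did not overlap in either pair. The ranges of o2, wx1 and sh2 overlapped, though o2 was above wx1 and wx1 above sh2 in all 4 libraries. For H3K9ac, pbf1, sh1 and bt2 overlapped and stood above the other 5, with bt2 over ae1 by 0.96 to 1.32, and these 5 overlapped in turn. For H3K27me3 a gap lay after o2 alone; wx1, with a mean of 0.49, was above ae1 in all 4 libraries within overlapping ranges, and the other 6 formed 1 overlapping run.

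**Figure D3:**
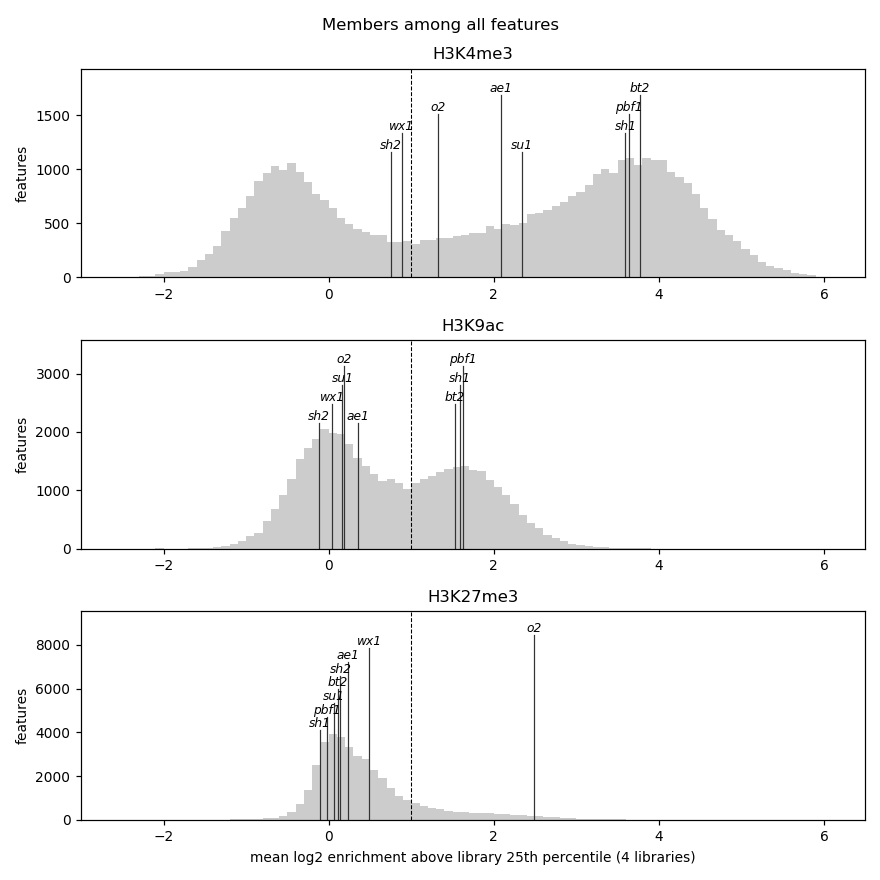
Mean level of each mark over its 4 libraries (horizontal axis, log2 above the library's 25th percentile) for all features (grey bars, number of features) with lines at the 8 genes and a dashed line at 2-fold. H3K4me3 and H3K9ac have 2 peaks each; bt2, sh1 and pbf1 lie in the higher one for both marks, and sh2 and wx1 between the peaks for H3K4me3 and in the lower one for H3K9ac.

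The 8 genes can also be split by tissue use, as known for them. wx1, sh2, bt2, ae1, o2 and pbf1 were taken as centred on the seed, and su1 and sh1 as used in leaf or other vegetative tissue as well. Of the 6 seed genes, 4 were marked by H3K4me3, 2 by H3K9ac and 1 by H3K27me3, and their mean H3K4me3 levels spanned 0.75 to 3.77. Both vegetative genes were marked by H3K4me3, with mean levels of 2.34 and 3.59, 1 of them by H3K9ac and 0 by H3K27me3. The 2 vegetative genes lay inside the span of the seed genes for H3K4me3 and H3K9ac. Their mean H3K27me3 levels were -0.10 (sh1), under the mean of every seed gene, and 0.07 (su1), beside -0.02 to 2.49 with a median of 0.19 for the seed genes. The seed gene next to sh1, pbf1, was above it in only 2 of the 4 libraries, with differences of -0.17 to 0.31. Genes are not replicates of a class, and no test was made.

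The states depend on the window set for whole chromatin. With whole-gene counts as the background of the active marks, only bt2 and sh1 remained marked by H3K4me3, beside 53.3% of all features, and 0 of the 8 genes were marked by H3K9ac, beside 37.9%. The mean H3K4me3 level of pbf1 was then 0.33, at percentile 29.6, that of ae1 -1.29 and that of sh2 -1.58. Whole-gene whole-chromatin counts were 14.2 times those of the 1 kb window at pbf1 and 15.0 times at ae1, against a median of 2.60 over all features. With the 1 kb window as the background of H3K27me3 all 8 genes passed 2-fold, and so did 20064 of 43580 features (46.0%). o2 kept percentile 95.8 there, but ae1, at 96.6, and pbf1, at 94.3, came beside it, so that the place of o2 above the other 7 holds for the whole-gene background only. Counts of H3K27me3 followed whole-gene whole-chromatin counts across features with Spearman correlations of 0.889 to 0.910. With those of the 1 kb window they were 0.240 to 0.256. H3K4me3 also followed whole-gene counts more closely, at 0.424 to 0.457, than those of the 1 kb window, at 0.124 to 0.187. For H3K9ac the correlations were 0.445 to 0.460 and 0.238 to 0.304 in the same order. In which window the reads of a mark were counted was not tested.

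**Figure D4:**
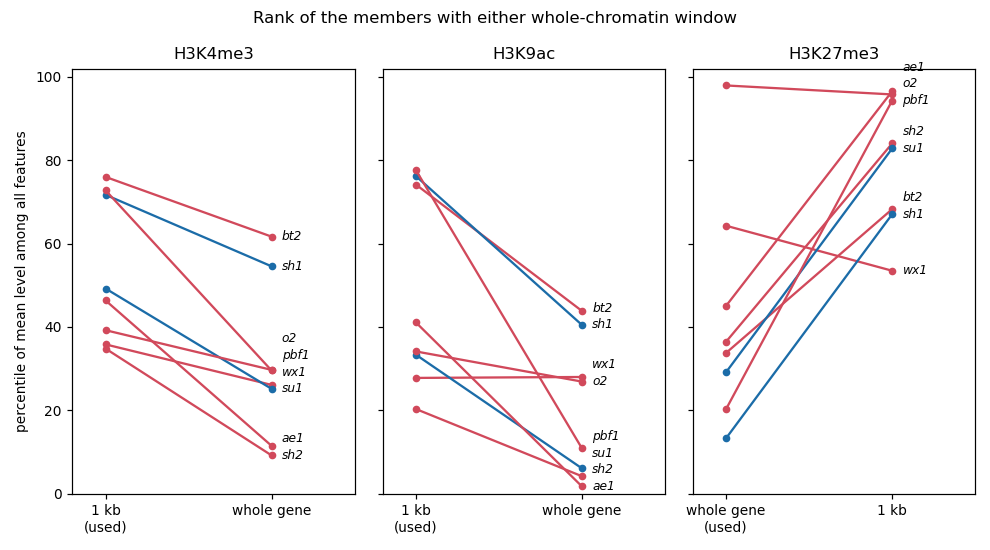
Percentile of the mean level among all features for each gene with the whole-chromatin window used here (left points) and with the other window (right points); red lines are genes centred on the seed and blue lines those also used in vegetative tissue. o2 stays at 97.9 and 95.8 for H3K27me3, while pbf1 goes from 20.3 to 94.3 and ae1 from 45.1 to 96.6.

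Drought was read from stressed over well-watered plants at the same time. Counts were scaled by the trimmed mean of M-values (TMM), and a gene met the rule of size when its ratio was at least 1.5-fold and its exact 99.9% interval left out 1. At T0, 0 of the 8 genes met it for H3K4me3, beside 1.97% of features tested, 1 for H3K9ac, beside 1.27%, and 0 for H3K27me3, beside 0.213%. The gene was sh1, with 83 H3K9ac counts in drought and 51 in well-watered plants, a log2 ratio of 0.88 (95% interval 0.36 to 1.42), where 0.441% of features were higher. Its rank among all features in H3K9ac level was percentile 89.0 in the stressed and 60.5 in the well-watered library. The spread of H3K9ac levels, from the 25th percentile up to the 95th, was widest in the well-watered T0 library (6.74-fold, others 4.50 to 4.82). Once the dependence of ratios on enrichment was removed, sh1 gave 1.03. Scaled on background features, whose use moves the median of all H3K9ac ratios by -0.45, it was 0.43 and no longer met the rule. H3K4me3 at sh1 did not share the difference, with a ratio of -0.13 (-0.48 to 0.20). The spread of H3K4me3 levels was likewise widest in the well-watered T0 library (40.1-fold, others 22.4 to 23.0). Scaling on background features moved the median of all H3K4me3 ratios at T0 by -0.76. With it, bt2, ae1, sh1 and pbf1 met the rule as lower in drought plants, as did 50.3% of all features.

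The ratios of the other genes at T0 had 95% intervals that took in 0 for all 3 marks. For H3K4me3 the 8 ratios ran from -0.24 (ae1) to 0.37 (o2) with a median of -0.09, beside 0.01 over all features. wx1 had the largest H3K9ac ratio, 0.92, but from 17 against 10 counts, with an interval of -0.26 to 2.24. At o2 the H3K27me3 ratio was -0.05 (-0.42 to 0.33).

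After recovery, 2 of the 8 genes met the rule for H3K27me3, beside 0.555% of features. At o2 H3K27me3 was higher in previously stressed plants, with 152 against 76 counts, a log2 ratio of 0.71 (95% interval 0.31 to 1.13), where 0.425% of features were higher. At su1 it was lower, with 63 against 99 counts and a ratio of -0.93 (-1.42 to -0.47), where 0.13% were lower. These went opposite ways in the same pair of libraries. Without meeting the rule, sh1 (-0.59, 95% interval -1.19 to -0.01) and pbf1 (-0.34, -0.68 to -0.01) were also lower in previously stressed plants. The 95% intervals of wx1, sh2, bt2 and ae1 took in 0. The same spread was narrowest for H3K27me3 in the well-watered T7 library (3.61-fold, others 4.09 to 4.48). Once the dependence of ratios on enrichment was removed, o2 gave 0.35 (99.9% interval -0.31 to 1.05) and no longer met the rule, while su1 gave -0.89 and met it. With enrichment over the 1 kb window in its place, o2 gave 0.69 and met the rule. All 3 ratios that met the rule at either time were under 2-fold. su1 was not H3K27me3-marked: its levels were 0.53 in well-watered and -0.37 in previously stressed plants at T7, percentiles 62.2 and 6.22 of all features.

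None of the 8 genes met the rule at T7 for H3K4me3 (0, beside 0.191% of features) or for H3K9ac (0, beside 0.194%). For H3K4me3 the ratios ran from -0.29 at pbf1 (-0.57 to -0.00) to 0.19 at ae1 (-0.29 to 0.70), and for H3K9ac from -0.21 at bt2 to 0.47 at o2. sh1, which stood out for H3K9ac at T0, gave 0.15 (-0.46 to 0.75) at T7.

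**Figure D5:**
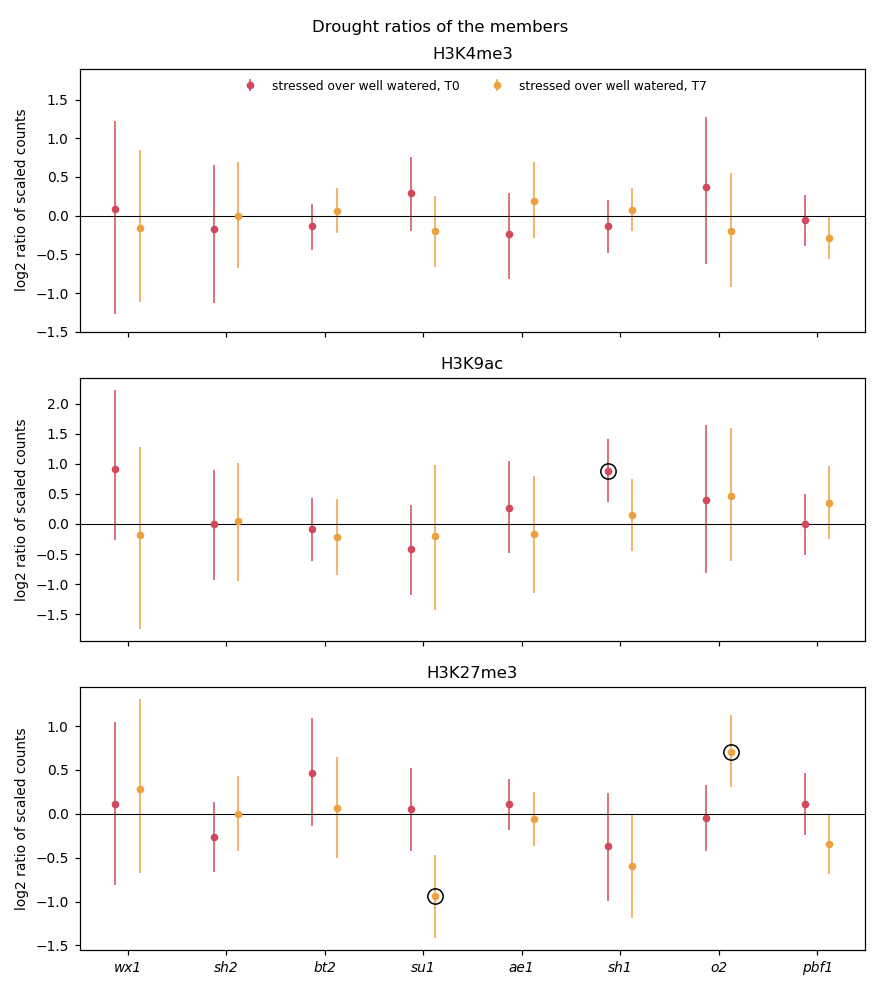
Log2 ratio of scaled counts in stressed over well-watered plants at T0 (red) and T7 (orange) for the 8 genes, a panel per mark; bars are exact 95% intervals for counting error and black rings mark ratios that met the rule of size. The rings are at sh1 for H3K9ac at T0 (0.88) and at o2 (0.71) and su1 (-0.93) for H3K27me3 at T7.

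Over the 7 days of recovery no gene of the 8 met the rule in either watering. These comparisons share their libraries with those of drought. The background was 3.05% of features in well-watered and 2.26% in drought plants for H3K4me3, 1.44% and 0.308% for H3K9ac, and 0.762% and 0.198% for H3K27me3, with 0 of the 8 genes in each. H3K4me3 at bt2 gave a log2 ratio of T7 over T0 of -0.40 (-0.68 to -0.14) in well-watered plants and -0.21 (-0.51 to 0.11) in drought plants. H3K9ac at su1 gave -0.89 (-1.87 to -0.03) in well-watered plants, from 15 against 41 counts, and -0.67 (-1.81 to 0.33) in drought plants. H3K27me3 at o2 gave -0.50 (-0.94 to -0.08) in well-watered and 0.25 (-0.10 to 0.62) in drought plants. Other ratios rose. H3K27me3 at su1 gave 0.52 (0.08 to 0.97) in well-watered plants, from 99 against 79 counts, and -0.46 (-0.96 to 0.03) in drought plants. At pbf1 it gave 0.38 (0.04 to 0.73) and -0.07 (-0.42 to 0.27) in the same order. H3K4me3 at sh1 gave 0.12 (-0.16 to 0.40) in well-watered and 0.33 (0.00 to 0.68) in drought plants. The T0 side of the well-watered H3K4me3 ratios, including that of bt2, is the library with the widest spread of levels. Scaling on background features moves the median of all these H3K4me3 ratios by -0.91. All 8 ratios then lay below 0, 6 of which were above 0 with TMM. bt2, su1, ae1, sh1 and pbf1 then met the rule as lower at T7, as did 63.6% of all features.

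A test with a residual term was possible by fitting the 4 libraries of a mark together in edgeR, with 1 residual degree of freedom per feature. For the additive fit this degree of freedom is the difference between the drought effects at both times. edgeR moderates the spread of each feature toward a trend over all features. The SE and p therefore rest largely on that shared trend and little on the gene's own term. Neither the trend nor this term measures spread between replicates. In the additive fit of watering and time, 0 of the 8 genes were called for drought in any mark at an adjusted p under 0.05, where H3K4me3 had 0.0028% of features called, H3K9ac 0.00242% and H3K27me3 0%. For time the called share was 3.9% for H3K4me3 and 0% for both other marks, with 0 of the 8 genes in each. The difference between the drought effects at T7 and T0 was called at 0.28% of features for H3K4me3 and 0% for the others, again with 0 of the 8 genes. Over these 72 tests of the 8 genes edgeR gave an unadjusted p under 0.05 in 7 and DESeq2 in 0, where over all features the share was 6.17% for edgeR and 0.188% for DESeq2. The lowest adjusted p was 0.183, for the H3K4me3 time effect at bt2 over both waterings, of -0.31 ± 0.13 on the log2 scale (SE; quasi-likelihood test of edgeR, adjusted after Benjamini and Hochberg). The difference between the H3K27me3 drought effects at T7 and T0 was 0.73 ± 0.32 at o2 (SE; edgeR adjusted p = 0.692) and -0.99 ± 0.37 at su1 (edgeR adjusted p = 0.593). In the fit of this difference the residual degree of freedom is the mean drought effect, moderated in the same way. That fit has no error term from replicates and settles nothing on whether the ratios at both times differ. The additive H3K9ac drought effect at sh1, fitted over both times, was 0.54 ± 0.26 (edgeR adjusted p = 0.99999). It joins log2 ratios of 0.88 (95% interval 0.36 to 1.42) at T0 and 0.15 (-0.46 to 0.75) at T7, whose intervals overlap.

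The 12 levels of a gene, 4 for each mark, were also used to find the feature most like it, by Euclidean distance on the log2 scale among 39426 other features. The nearest feature to o2 was Zm00001d034212 at a distance of 0.65, whose mean H3K4me3 level was 1.36, beside 0.14 in H3K9ac and 2.45 in H3K27me3. Within a distance of 2, o2 had 451 features, the fewest of the 8 genes, and bt2 had 10792, the most. The nearest of the 8 genes to o2 was wx1 at 4.25, with 5053 features closer. sh1 and pbf1 were each other's nearest of the 8 at 0.84, wx1 and sh2 at 1.18 and su1 and ae1 at 1.35, and in each case other features lay closer.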

How the data were processed

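The authors deposited raw read counts per feature: 1 table per mark with 4 libraries, and whole-chromatin counts in a 1 kb window at the start site and over the whole gene, per the file headers. The submitters' processing notes name CASAVA 1.8, Bowtie2 and B73 RefGen_v4. How reads were counted, in which window of each mark and whether duplicates were removed is not given in the sources used here. Log2 values carry a prior of 0.5 counts. Levels used features with at least 20 whole-chromatin counts, and ratios those with at least 40 counts over the 4 libraries of a mark; all 8 genes passed both. The lone whole-chromatin library served all groups, so its counting error is shared by all levels of a gene.

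TMM scaling, the quasi-likelihood test and its alternative were run with edgeR 4.0.16, limma 3.58.1 and DESeq2 1.42.0 in R 4.3.3, over all features. The quasi-likelihood test has 1 residual degree of freedom per feature. This is the difference between drought effects in the additive fit and the mean drought effect in the fit of this difference. edgeR moderates the spread from it toward a trend over all features. SE came from the F statistic. Intervals are exact conditional binomial (Clopper-Pearson), cover counting error only and take the scaling as known. Levels, ratios and rules were computed in Python 3.11.15; fits and intervals were tested on simulated data. All 8 genes were named by rule, with the nearest feature to each. The genes, lists and rules were chosen with earlier results of these data known. The reference table, of a later assembly, holds 7 of the 8 symbols (not su1) and 0 identifiers of RefGen_v4. Promoter motifs, other starch genes and marker genes of the tissue were not analysed here.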

Additional observations from a re-analysis of the deposited data

How the results depend on the processing

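Total counts, DESeq2 size factors, no filter on low counts and removal of the trend on enrichment over the other window changed neither the direction of a called ratio nor a call at any of the 8 genes. Levels without 1 library each moved by at most 0.28 (log2), within the spread over libraries, and the numbers of marked genes stayed at 6 (H3K4me3), 3 (H3K9ac) and 1 (H3K27me3). The other whole-chromatin window gave 2, 0 and 8 marked genes (53.3%, 37.9% and 46.0% of all features). The library median as reference gave 2 for H3K4me3 (28.2% of features) and 0 for H3K9ac (12.2%). A 4-fold threshold gave 4 for H3K4me3 (50.2%), which left out ae1 and o2, and 0 for H3K9ac (5.01%). A 2-fold rule left 0 genes for H3K9ac at T0 (0.632% of features) and 0 for H3K27me3 at T7 (0.22%). Removal of the trend on enrichment left 1 for H3K27me3 at T7 (0.184%). A 95% interval added 1, su1, for H3K9ac over time in well-watered plants, where it called 10.3% of features. It also added sh1 (-0.59) for H3K27me3 at T7, where it called 5.85%.

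Scaling on background features and the trend over the other window were added after the data were seen. The former gave 4 genes for H3K4me3 at T0 (50.4% of features), 5 for H3K4me3 over time in well-watered plants (63.6%) and 0 for H3K9ac at T0 (11.3%). It moved the median of all H3K4me3 ratios by -0.76 in the first and -0.91 in the second, where it turned the ratios of wx1 (-0.50), sh2 (-0.65), su1 (-0.81), sh1 (-0.79), o2 (-0.25) and pbf1 (-0.72) below 0. Fits with no filter, size factors, the trend on abundance removed or DESeq2 called 0 of the 8 genes. No paired analysis was possible because the labels give no replicate numbers and each group has 1 library; the additive fit holds time as a term. Low counts limit the ratios: at sh2 the T0 interval for H3K9ac was -0.93 to 0.90, and at wx1 that for H3K4me3 -1.27 to 1.22.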
